A study of Mus musculus with 12 samples.

Results

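The enzymes and transporters of glucose breakdown were followed in T cells stimulated in mice with a strong or a weak peptide. The set holds 35 genes of glucose and lactate transport, glycolysis, the control of glycolytic flux, the pentose phosphate pathway and the TCA cycle. They were chosen by symbol from a list of these pathways, with earlier results of these data known. A probe set, the group of short probes that reads 1 transcript on an Affymetrix array, was taken as a member's own where the platform annotation gave it that single symbol. On this rule 32 of the 35 genes had 65 of the 22690 probe sets. Of these, 29 genes (54 probe sets) passed the filter on dim probe sets and were tested, of 7945 genes tested in all. Gpi1, Eno1 and G6pdx were not analysed here for want of a probe set with their symbol alone. Hk2 and Slc16a3 lay below the filter, and Gapdh was read by 3 Affymetrix control probe sets only; these 3 genes are described separately. A gene with several tested probe sets was represented by the brightest of them, averaged over the arrays.

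The cells carried the transgenic 5CC7 T cell receptor, which recognises a moth cytochrome c peptide. Recipient B10.A mice were given 1000000 of these cells through the tail vein, and the peptide, in PBS, by the same route. The 4 groups, of 3 arrays each, received 2 µg or 0.2 µg of MCC, the strong agonist of this receptor, or 2 µg or 0.2 µg of 102S, the weak agonist. After 48 h lymph nodes were pooled and the 5CC7 cells were purified by flow cytometry. All 4 groups thus shared the receptor, the host strain, the transfer and the time, and no cells without peptide were among the arrays. Ages of the animals, and whether each replicate came from separate animals, are not given in the sources used here. Replicate 1 differed from replicates 2 and 3 in sex (Xist, below), so its cells came from other animals. The spread between replicates 2 and 3 may be technical, and p-values here speak only for the spread among these samples. Arrays hold no read depth, and their number limits the precision.

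Resting T cells draw most of their energy from mitochondrial oxidation, whereas T cells that receive an antigen signal take up more glucose and send much of it through glycolysis to lactate even when oxygen is present. The pentose phosphate pathway branches off from glycolysis and supplies NADPH and ribose for nucleotides, and the TCA cycle oxidises acetyl-CoA and supplies precursors for amino acids and lipids. Many of the genes of glycolysis are known targets of the transcription factors HIF-1 and MYC. An array reads transcripts and not enzyme activity or metabolite flow.

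Other features of the arrays moved with the groups. T cell identity markers were present, with 10 of 12 tested and group averages between 10.30 and 10.57 log2. Among them Cd5 was higher with MCC at 0.2 µg (1.11 log2, limma adjusted p = 0.000173) and Cd247 lower (-0.61, 0.0395). None was called between the peptides at 2 µg. All 8 tested markers of dividing cells (of 10 listed) were higher with MCC at both doses, and their mean was 4.04 log2 at 0.2 µg and 6.67 at 2 µg of 102S, then 7.70 at 0.2 µg and 8.31 at 2 µg of MCC. Of the 9 B cell markers 4 were tested, averaging 6.66 log2 at both doses of 102S, then 7.07 at 0.2 µg and 7.23 at 2 µg of MCC. Cd74, which other antigen-presenting cells also express, was higher with MCC at both doses (1.19 and 1.38 log2 at 2 and 0.2 µg), Cd79b was higher at 0.2 µg (1.26) and Ighm lower at 0.2 µg (-0.98; limma adjusted p = 1.8e-05). Cd79a, Ms4a1, Blk and Pax5 lay below the filter. For CD8 T and NK cells 6 of 9 markers were tested, averaging 6.88 log2 at 0.2 µg and 6.39 at 2 µg of 102S, then 6.08 at 0.2 µg and 5.55 at 2 µg of MCC. Klrd1 was lower with MCC at both doses (-2.68 and -2.36), Gzma at 2 µg (-1.34) and Prf1 at 0.2 µg (-1.23). Of the 21 markers of monocytes, dendritic cells and erythroid cells, 3 were tested. RNA quality was read from β-actin, whose 3′ probe set exceeds its 5′ one by more when RNA is broken or copied in part. This 3′ minus 5′ value had a mean of 0.63 ± 0.12 log2 for 2 µg of MCC, 1.24 ± 0.41 at 2 µg of 102S, 1.62 ± 0.81 at 0.2 µg of MCC and 1.33 ± 0.88 at 0.2 µg of 102S (SD, n = 3). Xist, the transcript of the inactive X chromosome, read 11.72 log2 or more on the 4 arrays numbered replicate 1 and at most 5.10 on the other 8, so replicate 1 differed from replicates 2 and 3 in sex in all 4 groups alike. The part of these features in the results below was not tested beyond the fits that carry them as a block or covariate. In bulk RNA, fewer cells of a type and less RNA per cell cannot be told apart.

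The promoter stretches of the members on which the results turn are shown first, because 3 glycolytic enzymes were higher with MCC at both doses (Tpi1, Pgk1 and Pgam1), as was the 3′ control probe set of Gapdh, and the glucose transporter Slc2a1 had differences of the opposite sign. The sequences are the 250 bases before the annotated start in RefSeq (GRCm38.p6), read 5′ to 3′ on the gene's strand, with matches to ACGTG on either strand in capitals. ACGTG is 1 form of the core of the element bound by HIF-1 and lies inside CACGTG, the E-box bound by MYC. Other forms of the HIF-1 core, such as GCGTG, were not searched.
Tpi1, chr6:124814159-124814408, minus strand: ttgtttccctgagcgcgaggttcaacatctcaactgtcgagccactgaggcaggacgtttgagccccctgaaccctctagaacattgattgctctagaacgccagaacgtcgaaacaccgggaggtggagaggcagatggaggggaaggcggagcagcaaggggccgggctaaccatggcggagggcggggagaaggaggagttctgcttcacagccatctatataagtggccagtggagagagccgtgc
Pgk1, chrX:106186850-106187099, plus strand: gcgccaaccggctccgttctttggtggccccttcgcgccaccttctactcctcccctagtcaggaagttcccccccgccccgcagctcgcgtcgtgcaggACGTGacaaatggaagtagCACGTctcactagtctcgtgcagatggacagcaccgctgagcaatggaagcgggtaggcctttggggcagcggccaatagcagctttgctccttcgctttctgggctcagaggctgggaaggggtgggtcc
Pgam1, chr19:41911621-41911870, plus strand: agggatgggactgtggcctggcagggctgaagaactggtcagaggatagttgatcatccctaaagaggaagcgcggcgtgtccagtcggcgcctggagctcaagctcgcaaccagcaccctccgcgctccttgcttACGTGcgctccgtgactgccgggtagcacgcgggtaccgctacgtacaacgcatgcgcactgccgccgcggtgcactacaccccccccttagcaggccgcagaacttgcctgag
Gapdh, chr6:125165774-125166023, minus strand: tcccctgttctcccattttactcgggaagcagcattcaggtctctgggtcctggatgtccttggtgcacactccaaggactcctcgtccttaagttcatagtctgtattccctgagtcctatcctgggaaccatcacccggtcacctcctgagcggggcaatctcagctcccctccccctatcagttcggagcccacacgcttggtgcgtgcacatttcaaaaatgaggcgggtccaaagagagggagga
Slc2a1, chr4:119108495-119108744, plus strand: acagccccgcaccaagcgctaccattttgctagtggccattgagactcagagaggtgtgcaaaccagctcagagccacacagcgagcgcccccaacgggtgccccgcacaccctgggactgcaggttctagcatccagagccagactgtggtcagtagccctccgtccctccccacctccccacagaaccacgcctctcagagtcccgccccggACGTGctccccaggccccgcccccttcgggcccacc
In these windows Pgk1 had 2 matches, with first bases at -150 and -131 from the start, Pgam1 had 1 at -114 and Slc2a1 had 1 at -36. None was found in the window of Tpi1 or of Gapdh, which says only that these letters are not in that stretch. Of the 33 members in the table, 12 held ACGTG (36.4%), against 4998 of 27025 genes (18.5%). CACGTG was in 4 of the 33 (12.1%) against 1854 of 27025 (6.86%). The median GC content of the windows was 60.8% in members and 52.4% over all genes. A match is a description of the letters and not a bound site. Aldoa, Slc2a1, Pgk1 and Pgam1 each held a match, and their differences had both signs.

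The first question was whether a member differed among the 4 groups at all. A moderated F test in limma, a linear model with a shared estimate of variance, was used, with Benjamini-Hochberg adjustment over all 13556 probe sets tested, and a gene is called here where the adjusted p was under 0.05. By this test 9 of 29 members (31.0%) were called, against 19.3% of all probe sets. The members are counted by their brightest probe set and the background by probe set, and no test of the list was made. The 9 were both tested glucose transporters (Slc2a1 and Slc2a3), 4 of 10 glycolytic enzymes (Aldoa, Tpi1, Pgk1 and Pgam1), 1 of 2 controllers of flux (Pdk1), 1 of 4 pentose phosphate enzymes (Tkt) and 1 of 11 TCA cycle and isocitrate or malate dehydrogenase genes (Fh1). They split into genes whose highest groups were the MCC groups (Tpi1, Pgk1, Pgam1, Tkt and Fh1), genes lowest with 2 µg of MCC and highest with 0.2 µg of 102S (Slc2a1, Aldoa and Pdk1), and Slc2a3, highest with 2 µg of 102S and 0.2 µg of MCC. With replicate 1 against replicates 2 and 3 as a block 11 members were called (37.9%, against 29.9% of all probe sets), and with replicates 2 and 3 alone 6 (20.7%, against 15.2%).

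**Figure D1:**
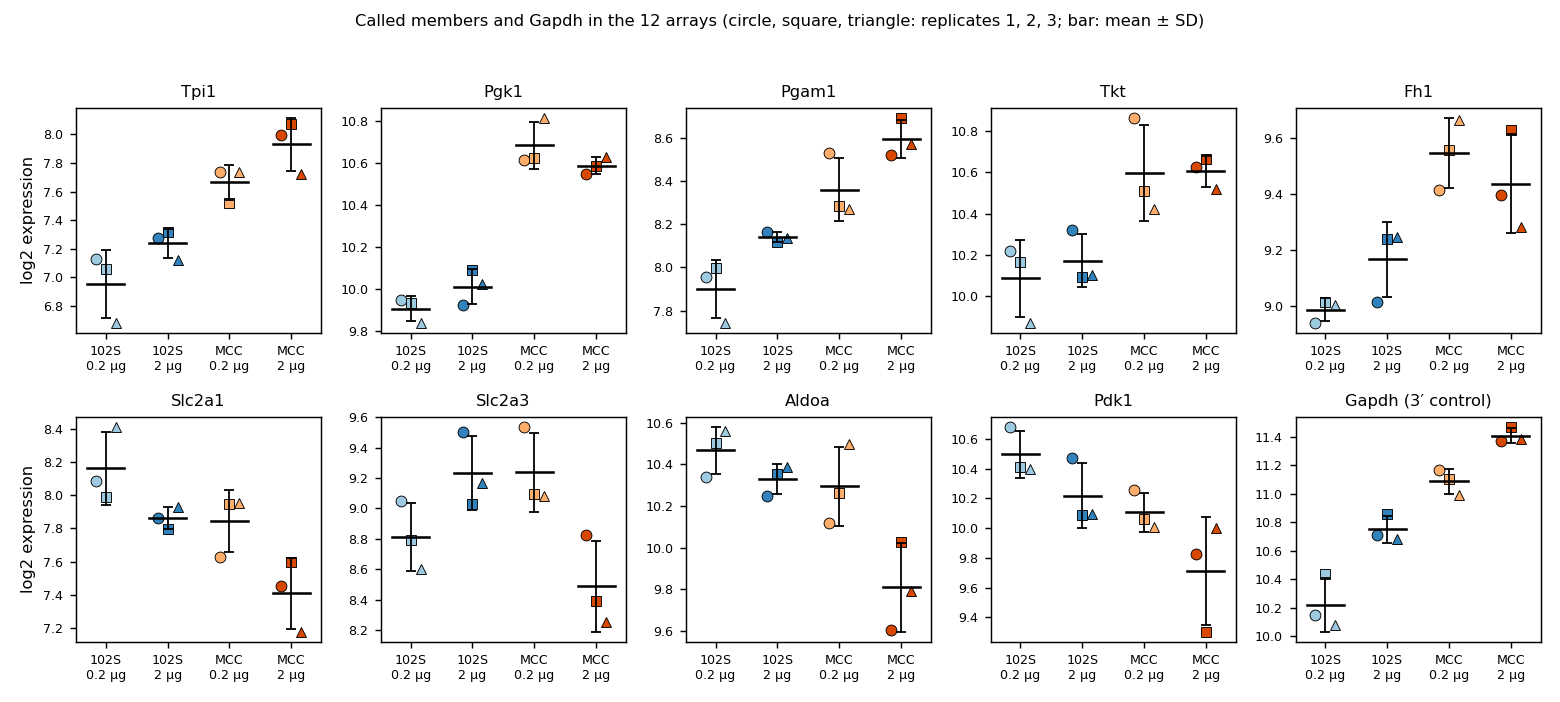
Log2 expression of the 9 called members and of the Gapdh 3′ control probe set in the 12 arrays, by group on the x axis; circle, square and triangle mark replicates 1, 2 and 3, and the bar and whiskers the mean and SD. In the top row every array with MCC lies above every array given the same dose of 102S; in the bottom row Slc2a1, Aldoa and Pdk1 are lowest on average with 2 µg of MCC, and each panel has its own axis, which does not start at 0.

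The comparison of the peptides at the same dose asked how the strength of the agonist relates to these transcripts. At 2 µg 3 of the 29 members were higher with MCC (10.3%, against 4.04% of all probe sets) and 2 were lower (6.90%, against 6.23%). At 0.2 µg 5 were higher (17.2%, against 7.85%) and 0 were lower, against 6.45% of all probe sets; at an unadjusted p under 0.05, 1 member (Pdk1) was lower at that dose, against 14.8% of all probe sets. Tpi1, Pgk1 and Pgam1 were higher with MCC at both doses. The median difference over the members was 0.07 log2 at 2 µg and 0.15 at 0.2 µg, against -0.04 over all probe sets at either dose. Among the 24 members not called, 23 at each dose had a 95% interval of the difference within 1 log2 (a 2-fold change) on either side of 0; the exception was Pkm.

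The counts varied with the arrays used. The share of all probe sets called, which in the fit without blocks was 10.3% at 2 µg and 14.3% at 0.2 µg, varied too. The counts did not always move with it. With the replicate 1 block 9 members were called at 2 µg (31.0%, against 15.2% of all probe sets), 6 higher and 3 lower. At 0.2 µg it gave 7, all higher (24.1%, against 22.2%). Replicates 2 and 3 alone gave 2 at 2 µg (6.90%, against 5.69%) and 3 at 0.2 µg (10.3%, against 11.0%). A covariate for the β-actin 3′ minus 5′ value gave 9 at 2 µg (31.0%, against 24.6%) and 10 at 0.2 µg (34.5%, against 26.9%). At 2 µg a single member, Pgk1, remained without 102S 2 µg replicate 3 (3.45%, against 5.16% of all probe sets). Without MCC 2 µg replicate 3 there were 2, Tpi1 and Pgk1 (6.90%, against 6.76%). There were 3 (10.3%) without 102S 2 µg replicate 1 (against 5.79%), 102S 2 µg replicate 2 (6.55%) or MCC 2 µg replicate 1 (7.94%). Leaving out single arrays at 0.2 µg gave 4 or 5 (13.8% or 17.2%), while the share of all probe sets ran from 7.75% to 20.5%. Without 102S 0.2 µg replicate 3 there were 4, against 18.2% of all probe sets. Without MCC 0.2 µg replicate 2 there were 5, against 7.75%.

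**Figure D2:**
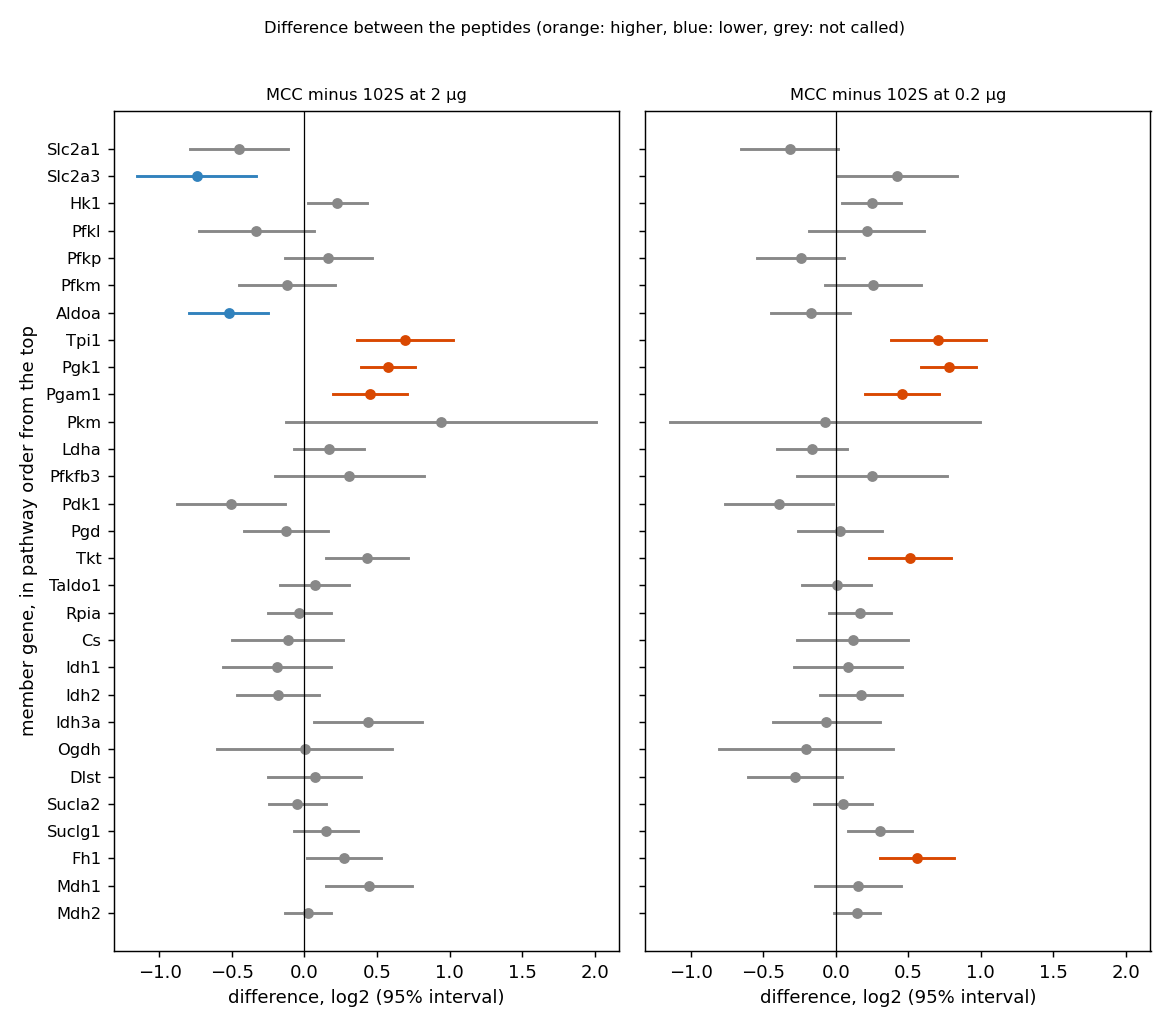
Difference between MCC and 102S (log2, x axis) with its 95% interval for the 29 tested members, in pathway order from the top, at 2 µg (left) and 0.2 µg (right); orange points are called higher with MCC, blue called lower and grey not called. Tpi1, Pgk1 and Pgam1 are orange in both panels, Slc2a3 and Aldoa are blue at 2 µg alone, and Pkm has the widest interval.

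Glucose enters T cells through the facilitative transporters GLUT1 (Slc2a1) and GLUT3 (Slc2a3). On the log2 scale Slc2a3 read 9.05, 8.79 and 8.60 at 0.2 µg of 102S, 9.50, 9.03 and 9.17 at 2 µg of 102S, 9.53, 9.09 and 9.08 at 0.2 µg of MCC and 8.82, 8.39 and 8.25 at 2 µg of MCC (replicates 1, 2 and 3, as in the lists that follow). It was lowest with 2 µg of MCC, below every array given 2 µg of 102S, and in every group replicate 1 was the highest. At 2 µg it was 1.67-fold lower with MCC (-0.74 ± 0.19 log2, SE; limma adjusted p = 0.0266). The call was lost without 102S 2 µg replicate 1 (-0.61, adjusted p = 0.108), 102S 2 µg replicate 3 (0.0717), MCC 2 µg replicate 2 (0.0822) or MCC 2 µg replicate 3 (0.112), with limma adjusted p-values from 0.000164 to 0.112 over all settings. At 0.2 µg the sign was the other way, 0.42 (95% interval 0.01 to 0.83), and no call was made (adjusted p = 0.168; 0.00783 with the replicate 1 block).

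The interaction, the difference between the peptides at 2 µg minus that at 0.2 µg, asked whether a member responded to dose differently under the 2 peptides. For Slc2a3 it was -1.17 log2 (95% interval -1.75 to -0.58; limma adjusted p = 0.0813), short of a call. With the replicate 1 block the same value had an adjusted p of 0.000548, and replicates 2 and 3 alone gave -1.17 and 0.0341; over all settings the range was 0.000439 to 0.231. A second tested probe set of Slc2a3 read 7.73, 7.53 and 7.53 at 0.2 µg of 102S, 8.23, 7.72 and 8.16 at 2 µg of 102S, 8.22, 7.93 and 8.20 at 0.2 µg of MCC and 7.59, 7.12 and 6.90 at 2 µg of MCC. It had the same shape over the groups, and for it the interaction was called, at -1.36 ± 0.27 log2 (adjusted p = 0.0364). That call held in 9 of 10 other settings but in 2 of 12 omissions of an array, those of 102S 2 µg replicate 2 and MCC 2 µg replicate 1. The second probe set was also called for the peptides at 2 µg (-0.84, adjusted p = 0.0149) and for the dose of MCC (-0.92, adjusted p = 0.0313), and the latter was lost in 6 of 12 omissions. The 2 further probe sets of Slc2a3 lay below the filter, with means of 3.25 and 2.71 log2.

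Slc2a1 read 8.09, 7.99 and 8.41 at 0.2 µg of 102S, 7.87, 7.80 and 7.93 at 2 µg of 102S, 7.63, 7.95 and 7.96 at 0.2 µg of MCC and 7.46, 7.60 and 7.18 at 2 µg of MCC. Its lowest group was 2 µg of MCC and its highest 0.2 µg of 102S, and the MCC and 102S arrays did not overlap at either dose. It was called among the 4 groups (limma F test, adjusted p = 0.0235), but not as the mean over its probe sets, in replicates 2 and 3 alone, when the 2 arrays with the largest β-actin 3′ minus 5′ value were dropped, or without 102S 0.2 µg replicate 1, MCC 2 µg replicate 1 or MCC 2 µg replicate 3. Its other 2 tested probe sets were not called (F test, adjusted p = 0.0523 and 0.522), with differences at 2 µg of -0.60 and -0.28 and at 0.2 µg of -0.27 and -0.44. The pairwise differences were -0.45 at 2 µg (95% interval -0.79 to -0.12; adjusted p = 0.0886) and -0.32 at 0.2 µg (-0.65 to 0.02; adjusted p = 0.207; 0.03 with the β-actin covariate), neither called. Slc16a3, the lactate exporter MCT4, averaged 3.77 log2, below the filter of 4.48, and differed by 0.14 at 2 µg (95% interval -0.26 to 0.55) and 0.17 at 0.2 µg (-0.24 to 0.58) in a fit without the filter.

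**Figure D3:**
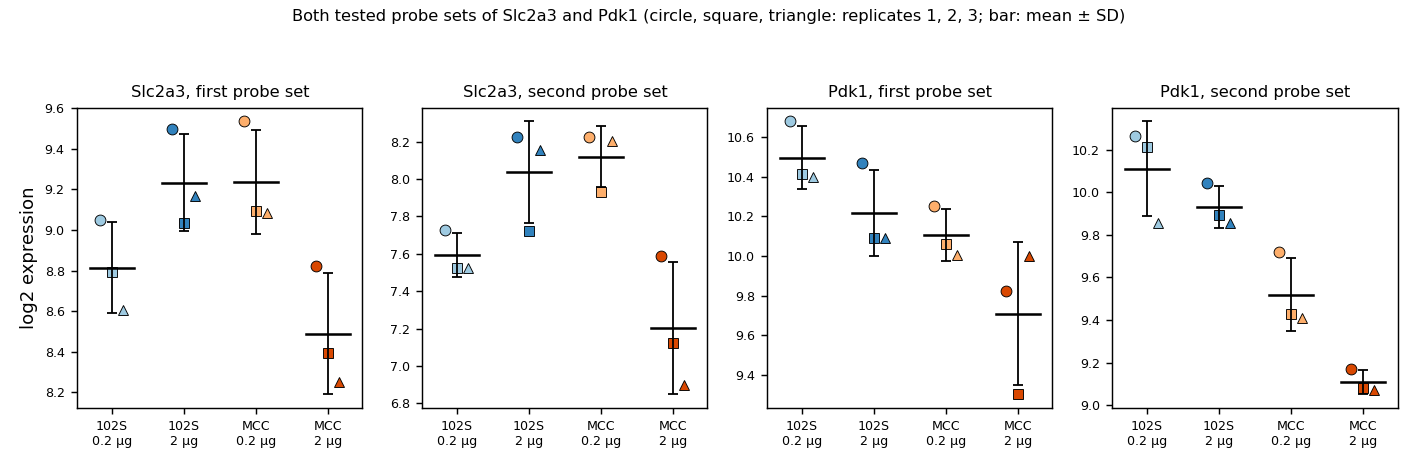
Log2 expression of both tested probe sets of Slc2a3 and of Pdk1 in the 12 arrays, by group; circle, square and triangle mark replicates 1, 2 and 3, with mean and SD. Both probe sets of Slc2a3 have their lowest mean with 2 µg of MCC, and the second probe set of Pdk1 has a smaller spread in that group (9.07 to 9.17) than the first (9.30 to 10.00).

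Among the glycolytic enzymes, Pgk1, the phosphoglycerate kinase that makes the first ATP of the pathway, gave the steadiest difference. It read 9.95, 9.93 and 9.84 at 0.2 µg of 102S, 9.92, 10.09 and 10.02 at 2 µg of 102S, 10.62, 10.63 and 10.82 at 0.2 µg of MCC and 10.55, 10.59 and 10.63 at 2 µg of MCC. All 6 arrays with MCC lay above all 6 with 102S, whatever the dose. The difference was 0.58 ± 0.09 log2 (1.49-fold) at 2 µg (limma adjusted p = 0.0014) and 0.78 ± 0.09 (1.71-fold) at 0.2 µg (adjusted p = 6.52e-05). Pgk1 was also the single member called between 0.2 µg of MCC and 2 µg of 102S, a comparison of the strong peptide at the low dose with the weak one at the high dose (0.67 ± 0.09; adjusted p = 0.00216), where 2.48% of all probe sets were called. These 3 calls held in all 12 other settings and in all 12 omissions of an array. In the replicate 1 arrays the difference was 0.63 at 2 µg and 0.67 at 0.2 µg, and in replicates 2 and 3 it was 0.55 and 0.83. The other 2 probe sets of Pgk1 were called in the same direction at both doses, with differences of 0.52 and 0.44 at 2 µg and 0.68 and 0.74 at 0.2 µg.

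Tpi1, triosephosphate isomerase, which interconverts the pair of 3-carbon sugars made by aldolase, had a like pattern. It read 7.13, 7.06 and 6.69 at 0.2 µg of 102S, 7.27, 7.32 and 7.13 at 2 µg of 102S, 7.74, 7.52 and 7.74 at 0.2 µg of MCC and 8.0, 8.07 and 7.72 at 2 µg of MCC. The 6 arrays with MCC were again above the 6 with 102S. Tpi1 was 1.62-fold higher with MCC at 2 µg (0.69 ± 0.15 log2; limma adjusted p = 0.0124) and 1.63-fold at 0.2 µg (0.71 ± 0.15; adjusted p = 0.00815). At 2 µg the call was lost without 102S 2 µg replicate 3 (adjusted p = 0.0627) and in replicates 2 and 3 alone (0.099), where the difference was 0.68. At 0.2 µg it was lost when the 2 arrays with the largest β-actin 3′ minus 5′ value were dropped (0.54, adjusted p = 0.0648), a setting chosen after seeing the data. Adjusted p-values over all settings lay between 0.0014 and 0.099 at 2 µg and between 0.0004 and 0.0648 at 0.2 µg. The other 2 probe sets of Tpi1 differed by 0.50 and 0.65 at 2 µg, the second called, and by 0.91 and 0.83 at 0.2 µg, both called.

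Pgam1, phosphoglycerate mutase, which acts after Pgk1, read 7.96, 8.0 and 7.74 at 0.2 µg of 102S, 8.16, 8.12 and 8.14 at 2 µg of 102S, 8.53, 8.28 and 8.27 at 0.2 µg of MCC and 8.52, 8.69 and 8.57 at 2 µg of MCC. The groups did not overlap between peptides at either dose. The difference was 0.45 ± 0.12 log2 at 2 µg (limma adjusted p = 0.0285) and 0.46 ± 0.12 at 0.2 µg (adjusted p = 0.0207), 1.37-fold and 1.38-fold. This was the least steady of the 3. At 2 µg its call was lost whichever array of the compared groups was left out, with adjusted p-values from 0.0502 without MCC 2 µg replicate 1 to 0.0942 without 102S 2 µg replicate 3, in replicates 2 and 3 alone (0.118) and without the filter (0.051). At 0.2 µg it was lost without 102S 0.2 µg replicate 1 (0.0516), 102S 0.2 µg replicate 3 (0.0517) or MCC 0.2 µg replicate 1 (0.0513), in replicates 2 and 3 alone (0.162), in the 6 arrays of these groups alone (0.097) and when the 2 arrays with the largest β-actin 3′ minus 5′ value were dropped (0.0701). The range of its differences over all settings was 0.37 to 0.50 at 2 µg and 0.38 to 0.52 at 0.2 µg.

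Aldoa, the aldolase that cleaves fructose bisphosphate just before the step of Tpi1, differed in the other direction. It read 10.34, 10.50 and 10.56 at 0.2 µg of 102S, 10.25, 10.35 and 10.39 at 2 µg of 102S, 10.12, 10.26 and 10.50 at 0.2 µg of MCC and 9.60, 10.03 and 9.79 at 2 µg of MCC. The arrays with 2 µg of MCC lay below the 9 others. Aldoa was 1.44-fold lower with MCC at 2 µg (-0.52 ± 0.13 log2; limma adjusted p = 0.0206), and at 0.2 µg the difference was -0.17 (95% interval -0.45 to 0.10), not called. The call at 2 µg was lost without 102S 2 µg replicate 2 (adjusted p = 0.0696), 102S 2 µg replicate 3 (0.0838), MCC 2 µg replicate 1 (-0.42 log2, 0.0763) or MCC 2 µg replicate 3 (0.0642), and in replicates 2 and 3 alone (0.0683). All 4 tested probe sets had negative differences at 2 µg, between -0.46 and -0.61, and 2 of them were called. Each of the 4 has a suffix that marks probes shared with further transcripts, so they may not be independent readings of Aldoa.

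Gapdh, the dehydrogenase between Tpi1 and Pgk1 and often used as a reference gene, was read by control probe sets at its 3′ end, middle and 5′ end, which were added to the fit after the data were seen. The 3′ probe set, where incompletely copied RNA weighs least, read 10.15, 10.44 and 10.08 at 0.2 µg of 102S, 10.71, 10.86 and 10.68 at 2 µg of 102S, 11.17, 11.10 and 10.99 at 0.2 µg of MCC and 11.37, 11.47 and 11.39 at 2 µg of MCC. The 4 groups did not overlap with their neighbours in this order, which is also the order of the dividing-cell markers. The 3′ probe set was higher with MCC by 0.66 ± 0.10 log2 at 2 µg (limma adjusted p = 0.00153) and by 0.87 ± 0.10 at 0.2 µg (adjusted p = 9.14e-05). It was higher with 2 µg than with 0.2 µg of 102S by 0.53 ± 0.10 (adjusted p = 0.0107), while the 2 doses of MCC differed by 0.32 (95% interval 0.10 to 0.54; adjusted p = 0.135). The 5′ probe set was not called at either dose, with differences of 1.32 (95% interval 0.36 to 2.27; adjusted p = 0.0817) at 2 µg and 0.65 (-0.30 to 1.61) at 0.2 µg. The middle probe set was called at 2 µg (1.05, adjusted p = 0.0335) and not at 0.2 µg (0.69, 95% interval 0.08 to 1.30). The 3′ minus 5′ difference of Gapdh averaged 0.21 log2 with 2 µg of MCC and 0.87 to 1.11 in the other groups, and its part in the results was not tested.

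**Figure D4:**
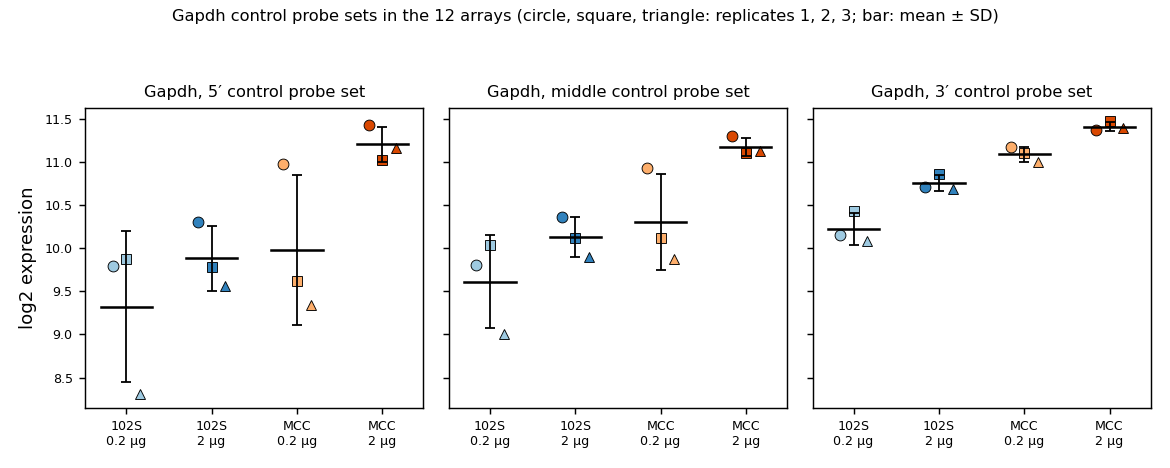
Log2 expression of the 5′, middle and 3′ control probe sets of Gapdh in the 12 arrays, by group on the x axis; circle, square and triangle mark replicates 1, 2 and 3, with mean and SD. The 3′ probe set separates the 4 groups with SDs from 0.05 to 0.19, whereas the 5′ probe set spreads from 8.31 to 9.87 within the group given 0.2 µg of 102S.

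The remaining glycolytic enzymes were not called. Hexokinase traps glucose in the cell by adding a phosphate, and Hk1 read 8.51, 8.54 and 8.58 at 0.2 µg of 102S, 8.73, 8.64 and 8.63 at 2 µg of 102S, 8.77, 8.72 and 8.88 at 0.2 µg of MCC and 8.86, 8.93 and 8.89 at 2 µg of MCC. It had among the smallest spreads of the members (pooled SD 0.06), with no overlap between peptides at either dose, and differences of 0.23 (95% interval 0.02 to 0.43; limma adjusted p = 0.163) and 0.25 (0.04 to 0.45; 0.102). Hk2, the inducible hexokinase, averaged 4.37 log2, below the filter, and read 3.98, 3.90 and 4.29 at 0.2 µg of 102S, 3.77, 4.46 and 3.33 at 2 µg of 102S, 5.02, 4.84 and 5.03 at 0.2 µg of MCC and 4.57, 4.89 and 4.36 at 2 µg of MCC. Its 4 highest readings all came from MCC arrays, 3 at the low dose and 1 at the high dose. In a fit without the filter Hk2 was higher with MCC at 0.2 µg (0.91 ± 0.25; adjusted p = 0.0413) and with 0.2 µg of MCC than with 2 µg of 102S (1.11 ± 0.25; adjusted p = 0.0491), but not called at 2 µg (0.75, 95% interval 0.22 to 1.29; adjusted p = 0.117). Low readings carry much background, so these differences are uncertain in size.

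Phosphofructokinase commits sugar to glycolysis and is made from 3 genes. Pfkp read 8.66, 8.77 and 8.36 at 0.2 µg of 102S, 8.56, 8.75 and 8.68 at 2 µg of 102S, 8.44, 8.32 and 8.31 at 0.2 µg of MCC and 8.96, 8.92 and 8.59 at 2 µg of MCC. Its MCC arrays separated by dose, while its peptide differences were 0.16 (95% interval -0.14 to 0.46) at 2 µg and -0.24 (-0.54 to 0.06) at 0.2 µg. Pfkl had group means from 5.29 to 5.82 log2 and Pfkm from 6.16 to 6.44, with neither called. Ldha, the lactate dehydrogenase subunit that ends glycolysis in lactate, read 10.69, 10.81 and 10.39 at 0.2 µg of 102S, 10.61, 10.61 and 10.53 at 2 µg of 102S, 10.58, 10.40 and 10.42 at 0.2 µg of MCC and 10.67, 10.89 and 10.69 at 2 µg of MCC. Its differences were 0.17 (95% interval -0.07 to 0.41) at 2 µg and -0.17 (-0.41 to 0.07) at 0.2 µg. Pkm, pyruvate kinase, varied most within groups of all members (pooled SD 0.73 log2 against a median of 0.16). It ranged from 6.34 to 7.76 at 0.2 µg of 102S, 6.81 to 7.71 at 2 µg of 102S, 5.98 to 8.11 at 0.2 µg of MCC and 7.93 to 8.74 at 2 µg of MCC. The interval of its difference at 2 µg, -0.13 to 2.01 around 0.94, spans both 0 and a large increase. Its lowest arrays, 102S 0.2 µg replicate 3 and MCC 0.2 µg replicate 3, were the 2 with the largest 3′ minus 5′ values of β-actin (2.35 and 2.33). With that value as a covariate the difference of Pkm at 2 µg was 0.30 (adjusted p = 0.323), and that between the doses of MCC went from 1.12 (0.259) to 0.08 (0.9). At 2 µg Pkm was called with all 3 replicate numbers as a block (0.0224) and in the 6 arrays of the compared groups alone (0.0312).

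Pyruvate dehydrogenase kinase 1 (Pdk1) blocks the entry of pyruvate into the TCA cycle, and Pfkfb3 makes the activator of phosphofructokinase. Pdk1 read 10.68, 10.41 and 10.40 at 0.2 µg of 102S, 10.47, 10.09 and 10.09 at 2 µg of 102S, 10.25, 10.06 and 10.00 at 0.2 µg of MCC and 9.83, 9.30 and 10.00 at 2 µg of MCC. It was called among the 4 groups (limma F test, adjusted p = 0.0298; lost without the intensity trend, in replicates 2 and 3 alone and without 102S 0.2 µg replicate 1 or 2, MCC 2 µg replicate 1 or 2, or MCC 0.2 µg replicate 2), with peptide differences of -0.51 (95% interval -0.88 to -0.14; adjusted p = 0.0835; 0.022 with the replicate 1 block) and -0.39 (-0.76 to -0.02; 0.158). A second probe set read 10.26, 10.21 and 9.86 at 0.2 µg of 102S, 10.04, 9.90 and 9.86 at 2 µg of 102S, 9.72, 9.43 and 9.41 at 0.2 µg of MCC and 9.17, 9.08 and 9.07 at 2 µg of MCC. On it all 6 arrays with MCC were below all 6 with 102S. It was lower with MCC by 1.77-fold at 2 µg (-0.82 ± 0.13; adjusted p = 0.00157) and 1.51-fold at 0.2 µg (-0.59 ± 0.13; adjusted p = 0.00783), in all 12 omissions of an array at both doses and in 11 of 11 and 10 of 11 other settings. The mean of the 2 probe sets was called at both doses, at -0.67 (adjusted p = 0.00617) and -0.49 (0.0234). Pfkfb3 read 7.13, 7.24 and 6.44 at 0.2 µg of 102S, 7.32, 7.18 and 7.17 at 2 µg of 102S, 7.62, 7.12 and 6.82 at 0.2 µg of MCC and 7.71, 7.63 and 7.26 at 2 µg of MCC, with peptide differences of 0.31 (95% interval -0.21 to 0.82) and 0.25 (-0.26 to 0.76).

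In the pentose phosphate pathway 1 of 4 tested members was called. Tkt, transketolase, which returns pentoses to glycolysis and also makes ribose from glycolytic intermediates, read 10.22, 10.17 and 9.87 at 0.2 µg of 102S, 10.32, 10.09 and 10.10 at 2 µg of 102S, 10.86, 10.51 and 10.42 at 0.2 µg of MCC and 10.63, 10.67 and 10.52 at 2 µg of MCC. All 6 arrays with MCC were above all 6 with 102S. Tkt was 1.43-fold higher with MCC at 0.2 µg (0.51 ± 0.13 log2; limma adjusted p = 0.02), in all 12 omissions of an array but not in replicates 2 and 3 alone (0.0528), in the 6 arrays of these groups alone (0.0955) or as the mean of its probe sets (0.0603). At 2 µg it differed by 0.43 (95% interval 0.15 to 0.71), just short of a call (adjusted p = 0.0543; 0.00992 with the replicate 1 block). Its second probe set had differences of 0.66 (95% interval 0.15 to 1.17) and 0.55 (0.04 to 1.06), not called.

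Transaldolase (Taldo1), which works beside Tkt, read 9.68, 9.63 and 9.35 at 0.2 µg of 102S, 9.73, 9.80 and 9.73 at 2 µg of 102S, 9.58, 9.66 and 9.45 at 0.2 µg of MCC and 9.87, 9.91 and 9.69 at 2 µg of MCC. Its peptide differences were 0.07 (95% interval -0.17 to 0.31) and 0.01 (-0.23 to 0.25). Pgd, the NADPH-making 6-phosphogluconate dehydrogenase, read 8.61, 8.77 and 8.52 at 0.2 µg of 102S, 8.81, 8.80 and 8.82 at 2 µg of 102S, 8.56, 8.50 and 8.93 at 0.2 µg of MCC and 8.77, 8.76 and 8.51 at 2 µg of MCC. Its differences were -0.13 (95% interval -0.42 to 0.16) and 0.03 (-0.26 to 0.32). Rpia, which makes ribose 5-phosphate, read 8.51, 8.60 and 8.51 at 0.2 µg of 102S, 8.74, 8.67 and 8.57 at 2 µg of 102S, 8.77, 8.66 and 8.69 at 0.2 µg of MCC and 8.67, 8.67 and 8.54 at 2 µg of MCC. Its differences were -0.03 (95% interval -0.25 to 0.18) and 0.17 (-0.05 to 0.38). The interval of Pgd at 2 µg reached farthest from 0 among these 3 enzymes.

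Of the 11 TCA cycle and related dehydrogenase genes, Fh1 alone was called by the probe set that stands for the gene. Fh1 encodes fumarase, which turns fumarate into malate. It read 8.94, 9.02 and 9.01 at 0.2 µg of 102S, 9.01, 9.24 and 9.25 at 2 µg of 102S, 9.42, 9.56 and 9.67 at 0.2 µg of MCC and 9.40, 9.63 and 9.28 at 2 µg of MCC. Every array with MCC was above every array with 102S. It was 1.47-fold higher with MCC at 0.2 µg (0.56 ± 0.12 log2; limma adjusted p = 0.00722), in all 12 other settings and all 12 omissions, and at 2 µg the difference was 0.27 (95% interval 0.02 to 0.52; adjusted p = 0.183). With the β-actin covariate the difference at 2 µg was 0.33 and was called (limma adjusted p = 0.0259).

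The malate dehydrogenases act next to fumarase, Mdh2 in the mitochondrion and Mdh1 in the cytosol. Mdh2 read 11.21, 11.19 and 11.25 at 0.2 µg of 102S, 11.23, 11.32 and 11.27 at 2 µg of 102S, 11.27, 11.35 and 11.48 at 0.2 µg of MCC and 11.23, 11.35 and 11.30 at 2 µg of MCC. Its peptide differences were 0.02 (95% interval -0.14 to 0.18) and 0.15 (-0.01 to 0.31). Mdh1 read 10.84, 10.70 and 10.74 at 0.2 µg of 102S, 10.80, 10.62 and 10.72 at 2 µg of 102S, 11.00, 10.93 and 10.81 at 0.2 µg of MCC and 10.99, 10.93 and 11.54 at 2 µg of MCC. Its difference at 2 µg was 0.44 (95% interval 0.15 to 0.74; adjusted p = 0.0599; 0.0369 with the replicate 1 block), of which replicate 3 carried most, and at 0.2 µg 0.16 (-0.14 to 0.45). The high reading of that replicate 3 array was not shared by the other tested probe sets of Mdh1, which read 10.18 and 10.22 on it. Their means were 10.26 and 10.13 with 2 µg of MCC, against 10.06 on each with 2 µg of 102S. Cs, citrate synthase, which admits acetyl-CoA to the cycle, read 9.78, 9.76 and 10.38 at 0.2 µg of 102S, 9.75, 9.90 and 9.98 at 2 µg of 102S, 9.82, 10.19 and 10.27 at 0.2 µg of MCC and 9.70, 9.98 and 9.60 at 2 µg of MCC. Its differences were -0.12 (95% interval -0.50 to 0.27) and 0.12 (-0.26 to 0.50). A dimmer probe set of Cs was called at 0.2 µg (0.35 ± 0.10; adjusted p = 0.0384), a call kept in 6 of 11 other settings and lost in 8 of 12 omissions, among them each array of the compared groups.

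The other 7 genes of this group, the cytosolic isocitrate dehydrogenase Idh1 and 6 that serve the cycle between isocitrate and succinate, were not called at either dose. At 2 µg their differences were -0.19 for Idh1, -0.18 for Idh2, 0.44 for Idh3a (95% interval 0.07 to 0.81; adjusted p = 0.137; 0.0414 with the replicate 1 block), 0.00 for Ogdh, 0.07 for Dlst, -0.05 for Sucla2 and 0.15 for Suclg1. At 0.2 µg they were 0.09, 0.17, -0.06, -0.20, -0.28, 0.05 and 0.31 in the same order, the last with an interval of 0.08 to 0.53 (adjusted p = 0.0665; 0.0281 with the replicate 1 block). Probe sets of 15 members could be compared with each other. They had the same sign throughout in 10 members at 2 µg and 11 at 0.2 µg, and no member had probe sets called in both directions. The exceptions were Idh1, Idh3a, Pfkl and Pgd at both doses and Cs at 2 µg. A dimmer probe set of Idh3a went the other way at 2 µg, with means of 5.52 log2 for 102S and 5.15 for MCC. Another had means of 5.80 and 5.88. Of the 29 probe sets that stand for a member, 7 have a suffix that marks probes shared with further transcripts, so related copies may add to their signal. They are those of Slc2a3, Aldoa, Pgk1 and Tkt, all called among the 4 groups, and of Pgd, Idh1 and Mdh1. The second tested probe set of Slc2a3 has such a suffix too.

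The comparison of doses within a peptide asked what a 10-fold change in dose did. Between 2 and 0.2 µg of MCC 0 of 29 members were called, against 1.76% of all probe sets. At an unadjusted p under 0.05 there were 9, or 31.0%, against 18.0% of all probe sets (4 higher and 5 lower with the higher dose). Quantile normalization, the β-actin covariate, replicates 2 and 3 alone and the mean over probe sets called Slc2a3. The replicate 1 block called Slc2a3 and Aldoa (6.9%, against 6.56% of all probe sets). With all 3 replicate numbers as a block 5 members were called (17.2%, against 11.5%). They were Slc2a3 (limma adjusted p = 0.000952), Aldoa (0.00859), Pkm (0.0187), Pfkp (0.026) and Pfkl (0.0468). In the fit without blocks Slc2a3 differed by -0.75 (95% interval -1.16 to -0.34; limma adjusted p = 0.0747), Aldoa by -0.49 (-0.76 to -0.21; 0.0804), Pfkl by -0.52 (-0.92 to -0.13; 0.175) and Pfkp by 0.47 (0.17 to 0.77; 0.115). A dimmer tested probe set of Pfkl went the other way, with means of 4.76 log2 at 2 µg and 4.37 at 0.2 µg of MCC. Without MCC 0.2 µg replicate 1, Aldoa (-0.57, limma adjusted p = 0.0312) and Pkm (1.62, 0.0473) were called. Pgk1, Tkt and Tpi1 differed between the doses of MCC by -0.10 (-0.28 to 0.09), 0.01 (-0.28 to 0.29) and 0.26 (-0.06 to 0.59).

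Between 2 and 0.2 µg of 102S 0 of 29 members were called too, against 3.16% of all probe sets. At an unadjusted p under 0.05 there was 1, against 13.0% of all probe sets. It was Slc2a3, higher with 2 µg by 0.42 (95% interval 0.01 to 0.83; limma adjusted p = 0.377; called with the replicate 1 block at 0.0251). The median difference over the members was 0.10 log2, and 28 of the 29 intervals lay within 1 log2 on either side of 0. Over the same dose step the mean of the dividing-cell markers went from 4.04 to 6.67 log2. No member was called for the interaction by the probe set that stands for it (0 of 29, against 0.767% of all probe sets; 1 at an unadjusted p under 0.05, Slc2a3, against 8.64%). The comparisons described share arrays, so their values for a member are not independent.

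A further 98 genes of these pathways and their regulators were listed, and 55 were tested. Of these 10 were called among the 4 groups (18.2%, against 19.3% of all probe sets). At 2 µg 4 were higher with MCC (7.27%, against 4.04%) and 2 lower (3.64%, against 6.23%), and at 0.2 µg 2 were higher (3.64%, against 7.85%) and 4 lower (7.27%, against 6.45%). Higher at 2 µg were the mitochondrial pyruvate carrier subunit Mpc1 (0.56 log2), the aspartate carrier Slc25a13 (0.81), the cytosolic aconitase Aco1 (0.60) and the mitochondrial aspartate aminotransferase Got2 (0.92). Aco1 was higher at 0.2 µg as well (0.58), as was Pdk3, a relative of Pdk1 (0.85; limma adjusted p = 0.0093). Thus Pdk3 and Pdk1 differed between the peptides in opposite directions at 0.2 µg, if Pdk1 is read by its second probe set.

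Lower with MCC at both doses were Adpgk, an ADP-dependent glucokinase (-0.61 and -0.72), and Prps1, which makes the activated ribose for nucleotides (-0.65 and -0.41). Adpgk was also lower with 2 µg than with 0.2 µg of 102S (-0.59; limma adjusted p = 0.0498). Txnip, which brings glucose transporters in from the cell surface, was lower with MCC at 0.2 µg (-0.98 ± 0.25; adjusted p = 0.0197), with group means of 10.59 for 0.2 µg and 10.17 for 2 µg of 102S, 9.61 for 0.2 µg and 9.46 for 2 µg of MCC. At 2 µg it differed by -0.71 (95% interval -1.25 to -0.17; adjusted p = 0.095). Egln1, an oxygen sensor that marks HIF-1 for destruction, was lower with MCC at 0.2 µg (-0.59; adjusted p = 0.0396). The transcripts of 2 regulators of these pathways were not called: Hif1a differed by 0.32 (95% interval -0.23 to 0.88) at 2 µg and -0.13 (-0.68 to 0.43) at 0.2 µg, and Myc by 0.15 (-0.57 to 0.87) and -0.46 (-1.18 to 0.26).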

How the data were processed

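Gene expression was measured on 12 Affymetrix mouse arrays, 3 for each of 4 groups. The authors deposited a log2 value for each of 22690 probe sets on each array. That the scale is log2 was inferred from the range, 1.86 to 14.7, and GCOS 1.4 is named per the submitters' processing notes. Background correction, summarisation and scaling are not given in the sources used here, and they could alter the size of differences of dim probe sets. Array medians differed by 0.089 log2 and replicates correlated at 0.977 to 0.995, so the values were used as deposited.

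Probe sets were named where the platform annotation gave 1 symbol (20393 of 22690); 691 had several, 1606 none, and 64 were controls. Controls, and probe sets whose mean fell below 4.48 log2 (percentile 40), were dropped. For the 13556 others limma 3.58.1 (R 4.3.3) fitted 4 group means (lmFit, then eBayes with trend), with 2-sided tests adjusted by Benjamini-Hochberg over all probe sets, threshold 0.05. Residual and prior degrees of freedom were 8 and 4.16. The ± values of differences are standard errors. Tested on simulated data for the 13556 probe sets of the peptide comparison at 0.2 µg, the fit recovered 72% of 1 log2 and 94% of 2 log2 changes, with 7 false calls. The simulated arrays varied independently, with 100 probe sets changed at each size. In the data same-numbered arrays deviated together and more probe sets differed, so these figures may not carry over.

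The members, the lists and the tests were chosen with earlier results of these data known. Array values are given for members called in any test and for up to 3 more per role by highest mean. Alternatives were no filter, median centring, quantile normalization, no trend, the replicate block, replicate 1 as a block, replicates 2 and 3 alone, the β-actin covariate, the compared groups alone, the mean over a gene's probe sets and each array left out. Added after seeing the data were the Gapdh control probe sets and a fit that leaves out the 2 arrays with the largest β-actin 3′ minus 5′ value.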

Additional observations from a re-analysis of the deposited data

Results flagged for a closer look

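The second probe set of the glucose transporter gene Slc2a3 stood out because the effect of the peptide differed between the doses. MCC minus 102S was -0.84 log2 at 2 µg and 0.53 log2 at 0.2 µg, an interaction of -1.36 log2 (95% interval -1.94 to -0.78; limma adjusted p = 0.0364 over 13556 probe sets; range over the other settings 0.00338 to 0.136). At 2 µg every array with MCC was below every array with 102S, and at 0.2 µg every array with MCC was above. The call held when 102S 2 µg replicate 2 or MCC 2 µg replicate 1 was left out and was lost in the other 10 omissions.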

How the results depend on the processing

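No member changed sign in a called result under any setting run. Over single members, 4053 values kept their side of the threshold, 65 gained a call and 29 lost one. Counts of called members that moved by over 1.5 times are as follows. With the replicate block, 10 were called between the peptides at 2 µg, 8 at 0.2 µg, 5 between the doses of MCC, 1 between those of 102S, 1 for the interaction, 3 between 0.2 µg of MCC and 2 µg of 102S and 16 among the 4 groups. In the same order 18.3%, 25.8%, 11.5%, 6.11%, 2.37%, 8.46% and 35.6% of all probe sets were called, against member shares of 34.5%, 27.6%, 17.2%, 3.45%, 3.45%, 10.3% and 55.2%. Same-numbered arrays deviated together for replicate 1 (6 pairs, r = 0.56 to 0.82) and replicate 3 (6 pairs, 0.22 to 0.66) but not throughout for replicate 2 (4 of 6 pairs over 0.1, range -0.29 to 0.39), and 10 of 12 arrays were closest to an array of their own number. The numbers were not taken as pairs because not every pair was over 0.1 and the labels do not say what a number shares. The fit without blocks thus keeps these shared deviations in its residual spread. At 2 µg Idh3a, Mdh1, Pdk1 and Tkt were not called in it but were called with replicate 1 as a block. Replicate 1 as a block gave 9, 2, 1, 1 and 3 for peptides at 2 µg, doses of MCC, doses of 102S, interaction and the crossed doses. In the same order 15.2%, 6.56%, 4.88%, 1.81% and 6.45% of all probe sets were called. Replicates 2 and 3 alone gave 2 at 2 µg, 3 at 0.2 µg, 1 between doses of MCC and 1 for the interaction. Beside them 5.69%, 11%, 4.36% and 0.782% of all probe sets were called. The β-actin covariate gave 9, 10, 1, 1 and 4 for peptides at 2 µg and 0.2 µg, doses of MCC, interaction and crossed doses. Against these, 24.6%, 26.9%, 4%, 2.1% and 8.68% of all probe sets were called. Quantile normalization gave 1 between doses of MCC (against 2.49%), 1 for the interaction (0.915%) and 3 for the crossed doses (3.46%). The mean over probe sets gave 1 (2.29%) and 1 (1.24%) for the first 2 of these. In these fits 1 member is 3.45% of the 29 tested. No filter gave 2 for the crossed doses. The 2 groups alone gave 3 at 0.2 µg, as did dropping the 2 arrays with the largest β-actin value, and fitting Gapdh gave 1 between doses of 102S. Leaving out single arrays gave 1 to 6 at 2 µg, 4 to 5 at 0.2 µg and 0 to 2 between doses of MCC. It gave 0 between doses of 102S and for the interaction, 1 for the crossed doses and 6 to 9 among the 4 groups. The shares of all probe sets ran from 5.16% to 11.8% at 2 µg, 7.75% to 20.5% at 0.2 µg and 0.45% to 8.91% between doses of MCC. They ran from 1.55% to 3.7% between doses of 102S and 0.457% to 1.05% for the interaction. For the crossed doses they were 0.627% to 4.82%, and among the 4 groups 13.7% to 27.7%. The cause of these shifts was not tested.

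With 3 arrays a group and a median standard error of 0.18 log2, changes well under 2-fold can be missed. The way probes were summarised is unknown, and signal over background limits the dim members Hk2 and Slc16a3.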
